A study of Mus musculus with 48 samples.

Results

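The arrays described here are the 24 of pulmonary arterial smooth muscle cells (PASMC), split by their message for surfactant protein C (Sftpc). Of the 48 arrays of the series, 24 were of PASMC and 24 of alveolar epithelial type II cells (AECII). The single Sftpc feature on the array was read in each PASMC array, and an array was called Sftpc-high above a log2 value of 6 and Sftpc-low at or below it. This put 11 of the 24 PASMC arrays in the Sftpc-high class and 13 in the Sftpc-low class. The classes were thus chosen by the measured Sftpc values of these arrays, so the Sftpc levels of the classes, and every difference between the classes, are given below as a description. The p values of the fit of class differences serve only to count genes beside the count over all genes, and support nothing. Tests were kept to the conditions and to variation inside a class, which the threshold bounds but does not order.

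All cells came from C57Bl/6J mice, and the series text gives 8 mice. Each cell type had 3 conditions of 8 arrays. These were a control whose handling the labels do not state, and a 24 h exposure to 15% e-cigarette vapour extract (ECVE) made from a liquid with 0 mg/ml or with 18 mg/ml nicotine. Per the labels' protocols, PASMC were purified with iron particles, left for days, reseeded, passaged once confluent and kept in smooth muscle medium with 15% serum. The labels number the arrays of a condition from 1 to 8 without saying which array came from which mouse. If these 8 mice supplied all 24 PASMC arrays, arrays share mice, and every n below counts arrays and not animals. Standard errors and p-values over arrays may then be too small, or too large where conditions that share mice are compared.

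Alveolar type II cells make surfactant, a film of lipids and proteins that keeps alveoli from collapsing. Sftpc and Sftpb encode its small hydrophobic proteins, and Sftpa1 and Sftpd encode its collectins, which bind microbes. Alveolar macrophages take up and break down surfactant, while arterial smooth muscle is known by its contractile proteins.

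The labelled cell type was checked first. Acta2, the alpha actin of smooth muscle, lay between 14.33 and 15.46 in all 24 PASMC arrays, against a mean of 11.71 in AECII. Myh11, the smooth muscle myosin heavy chain, spanned 4.86 to 9.31 in PASMC against an AECII mean of 3.14. Fibroblast markers were also well above their AECII means in both classes. Mfap5, a microfibril protein, lay at 11.94 to 13.66 against 7.62, and Fap, a protease of activated fibroblasts, at 4.57 to 10.33 against 2.94. The share of muscle cells and fibroblasts in these cultures was not tested. Values are the deposited log2 values, and the median over the features of an array was 2.98, so values near 3 are called near background here.

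Several arrays stood apart, and the sets of 3 named next were picked after their values were seen. Low arrays control 2, 0 mg 5 and 18 mg 5 had high keratins (Krt8 10.62, 10.22 and 9.93) and the lowest mean correlations with the other PASMC arrays (0.958 to 0.963). Low arrays control 4, 0 mg 7 and 18 mg 4 had high macrophage messages (Marco 10.99, 11.03 and 10.94). High arrays control 6, 0 mg 1 and 18 mg 7 had the highest macrophage lists together with high Krt8 (9.58, 9.51 and 9.88). High arrays control 8, 0 mg 3 and 18 mg 3 had the highest endothelial list means (7.65, 7.35 and 7.54; the next array was at 5.93). Each set held an array of every condition, and whether its arrays share a mouse was not tested. For the genes that such a set moved most, the difference is also given without it.

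The promoters below are shown because the messages of these 3 genes of alveolar type II cells are compared between the classes. They are the 250 bases before the transcription start from RefSeq (GRCm38.p6), 5′ to 3′ on the gene's strand, with capitals marking CTCAAG, a core sequence bound by the lung epithelial factor NKX2-1. Both strands were searched, and 13.3% of all 32851 RefSeq mouse promoters of this length held at least 1 match.
Sftpb, chr6:72304360-72304609, plus strand: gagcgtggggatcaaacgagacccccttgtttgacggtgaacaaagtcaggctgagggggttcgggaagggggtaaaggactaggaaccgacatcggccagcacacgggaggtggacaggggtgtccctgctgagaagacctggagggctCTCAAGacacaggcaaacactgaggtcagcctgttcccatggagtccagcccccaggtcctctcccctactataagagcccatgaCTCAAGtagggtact
Sftpa1, chr14:41131538-41131787, plus strand: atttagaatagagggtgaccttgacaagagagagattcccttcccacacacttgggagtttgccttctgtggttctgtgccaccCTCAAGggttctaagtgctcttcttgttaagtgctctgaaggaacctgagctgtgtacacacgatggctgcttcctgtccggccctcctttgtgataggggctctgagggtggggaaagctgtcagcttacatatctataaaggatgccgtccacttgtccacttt
Cxcl15, chr5:90794284-90794533, plus strand: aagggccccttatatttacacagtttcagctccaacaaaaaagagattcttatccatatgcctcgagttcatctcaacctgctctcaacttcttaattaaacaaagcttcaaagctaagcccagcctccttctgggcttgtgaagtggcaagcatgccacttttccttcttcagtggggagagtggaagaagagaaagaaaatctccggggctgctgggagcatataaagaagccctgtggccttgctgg
The Sftpb window held 2 matches, 100 and 15 bases before the start, the Sftpa1 window held 1, 166 bases before it, and the Cxcl15 window held 0. These are matches of letters only, and binding was not measured.

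Sftpc itself fell, by the rule, into separate ranges. In the Sftpc-high arrays the lowest, median and highest log2 values were 7.14, 10.26 and 11.82. In the Sftpc-low arrays they were 1.72, 2.68 and 5.04. The 24 AECII arrays lay above both, between 13.80 and 14.86. Just inside the threshold was 0 mg array 8 at 7.14, and just outside it was control array 1 at 5.04.

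Each condition held arrays of both classes. In the control, arrays 6, 7 and 8 were high at 10.34, 8.35 and 11.28, and arrays 1 to 5 were low at 5.04, 1.72, 3.25, 3.23 and 2.96. With the 0 mg/ml extract, arrays 1, 3, 6 and 8 were high at 11.82, 10.26, 8.80 and 7.14, and arrays 2, 4, 5 and 7 were low at 2.64, 3.28, 2.07 and 3.42. With the 18 mg/ml extract, arrays 1, 2, 3 and 7 were high at 9.53, 10.29, 11.21 and 8.73, and arrays 4, 5, 6 and 8 were low at 2.68, 2.00, 2.50 and 2.68. Thus 3 of 8, 4 of 8 and 4 of 8 arrays were high in the control, the 0 mg/ml and the 18 mg/ml condition, and no difference in the share was found (two-sided Fisher's exact test of 3 conditions by 2 classes, p = 1, n = 24 arrays). With thresholds of 5, 7 or 8 in place of 6 this p was also 1. The test takes the arrays as independent, which arrays of different conditions that share a mouse would not be. If each mouse gave an array to every condition and the class followed the mouse, the shares would be alike by design. In that case this p could say nothing about the extracts.

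**Figure D1:**
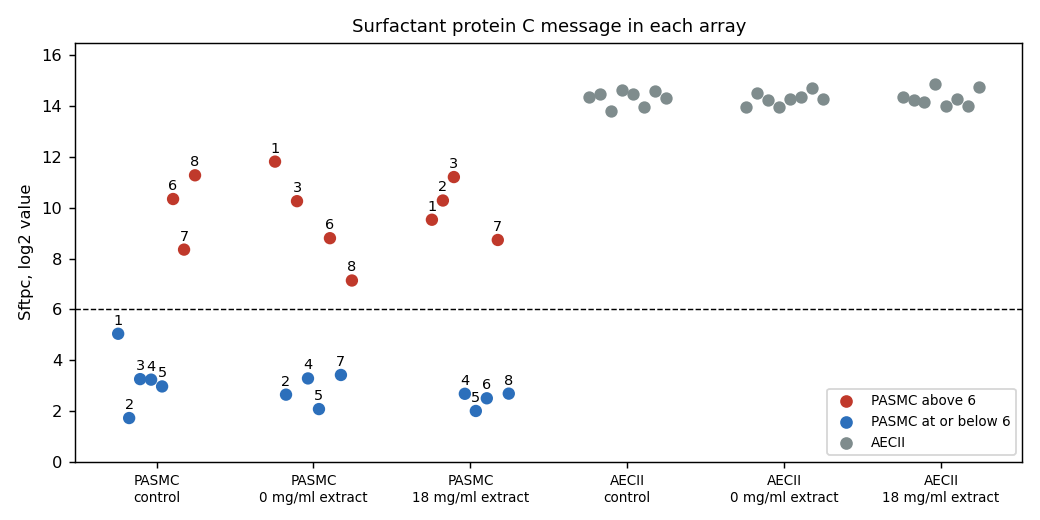
Log2 value of Sftpc in each of the 48 arrays (vertical axis) by cell type and condition, 1 point per array, with PASMC points numbered as in the labels and coloured by class, AECII in grey and a dashed line at 6. PASMC arrays of every condition lie on both sides of the line, and all AECII arrays lie above 13.

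Among all 14544 genes tested beside Sftpc, the difference between the classes was above 0 for 50.3%, with a median of 0.00089. The value adjusted by Benjamini and Hochberg in limma was under 0.05 for 1 gene (0.00688%), Sftpb. That count was unstable, running from 1 to 63 when 1 array was left out (63 without 0 mg array 8) and reaching 93 with a threshold of 8. Without adjustment, 524 genes (3.6%) were higher and 333 (2.29%) were lower in the Sftpc-high arrays at a value under 0.05. The ranges of the classes did not overlap for 1 gene (0.00688%), again Sftpb, and for no gene in the lower direction (0%). Because the classes were cut from the same arrays, these counts describe the arrays and were read no further. In all of what follows, a difference is Sftpc-high minus Sftpc-low in log2 with treatment as a covariate, ± its standard error, n = 11 and 13 arrays.

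Of the surfactant proteins, Sftpb went most closely with Sftpc. Its lowest, median and highest values were 3.59, 6.84 and 9.44 in the Sftpc-high arrays and 1.70, 2.11 and 2.93 in the Sftpc-low arrays. All 11 high arrays lay above all 13 low arrays, which sat at background, and the AECII mean was 9.97. The difference was 4.48 ± 0.47.

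Sftpd, the collectin, ran 1.53, 6.21 and 8.79 in the high arrays and 1.74, 2.24 and 3.80 in the low ones. Of the high arrays, 9 of 11 lay above every low array. The exceptions were control array 7 at 3.55 and 0 mg array 8 at 1.53, the latter at background although its Sftpc passed the threshold. The difference was 3.40 ± 0.61, or 2.68 without the endothelial-rich high arrays, and the AECII mean was 12.31.

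Sftpa1, the second collectin, stayed below the filter on low values and was not tested. Its values were 1.83, 2.85 and 4.73 in the high arrays and 1.77, 2.18 and 2.82 in the low arrays, with an AECII mean of 8.44. The highest was 18 mg array 3, and 6 of 11 high arrays exceeded every low array. Thus a message that is strong in AECII was at or near background in most PASMC arrays of both classes.

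Within conditions the surfactant differences were alike in size. For Sftpb they were 4.17 ± 0.87 in the control, 4.77 ± 0.85 with the 0 mg/ml extract and 4.49 ± 0.85 with the 18 mg/ml extract. For Sftpd they were 3.38 ± 1.12, 3.32 ± 1.09 and 3.50 ± 1.09 in the same order. The test of whether a class difference itself depended on the condition is given further below.

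The other alveolar type II genes were uneven. Of 25 on that list, 21 passed the filter on low values, a mean above 2.73 over the 24 arrays. Of these, 5 had a low-class mean at or below that limit (Sftpb, Sftpd, Cxcl15, Chil1 and Napsa) and so passed only through the high class, which fixes their direction. Of the other 16, 6 were higher and 0 were lower at an unadjusted value under 0.05, where 3.6% and 2.29% of all genes were. Cxcl15, a chemokine of lung epithelium, spanned 2.68 to 6.09 in the high and 1.96 to 3.25 in the low arrays, a difference of 1.62 ± 0.31. Chil1, a chitinase-like protein, spanned 2.25 to 6.56 against 1.88 to 3.35, a difference of 1.92 ± 0.37. Lyz1, a lysozyme that type II cells secrete, spanned 8.75 to 12.80 against 7.30 to 11.46, so it was well above background in the low arrays too, and differed by 2.08 ± 0.51. Hc, complement component 5, differed by 1.32 ± 0.37, or 0.81 without the endothelial-rich high arrays.

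Other members of the list differed less or not at all. Nkx2-1, the transcription factor that drives surfactant genes, had values of 3.10, 3.70 and 4.69 in the high arrays and 3.08, 3.84 and 5.22 in the low arrays. These ranges overlapped nearly fully and lay far under the AECII mean of 8.79, and the difference was -0.08 ± 0.24. Its sign turned in 5 of 41 alternative settings. Lamp3 and Abca3, a membrane protein and the lipid transporter of lamellar bodies, differed by 0.04 and -0.06, and Etv5, a transcription factor of these cells, by 0.07. Napsa, the protease that trims surfactant protein precursors, was near background in both classes at 2.00 to 4.04 and 1.79 to 3.32, a difference of 0.70 ± 0.25 with the same sign in all 41 alternatives. Ctsh, a protease of type II cells, Muc1, a membrane mucin, and Fabp5, a fatty acid carrier, differed by 0.28 ± 0.09, 0.57 ± 0.25 and 0.64 ± 0.21, and Cd36, a fatty acid receptor that macrophages and endothelium also carry, by 1.92 ± 0.61.

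**Figure D2:**
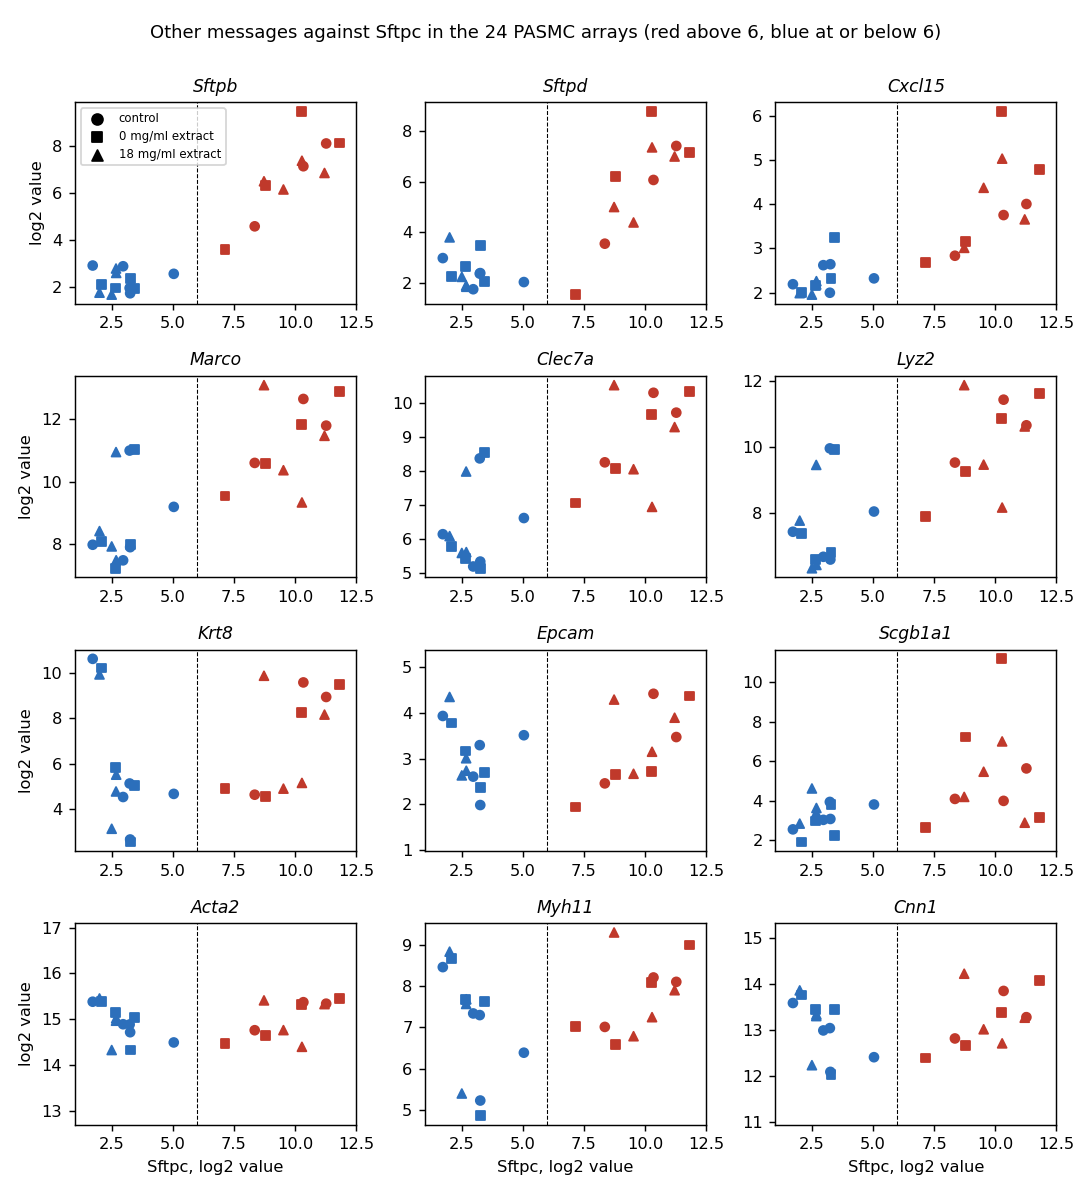
Log2 values of 12 genes (vertical axes, each panel with its own range of at least 4 log2 units) against the log2 value of Sftpc (horizontal axes) in the 24 PASMC arrays, with red for Sftpc-high, blue for Sftpc-low, marker shape for the condition and a dashed line at 6. Sftpb is at background in every low array, Marco and Lyz2 are high in 3 low arrays too, Krt8 is high in some arrays of each class, and Acta2 lies above 14 throughout.

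General epithelial genes overlapped widely between the classes. Of the 20 genes on that list 16 passed the filter, and 1 was higher and 0 were lower at an unadjusted value under 0.05 (3.6% and 2.29% of all genes). That gene, Tspan1, a tetraspanin, passed the filter only through the high class. Epcam, the epithelial adhesion molecule, was near background in both classes (1.94, 3.15 and 4.42 against 1.98, 3.01 and 4.35; AECII mean 9.18), a difference of 0.20 ± 0.31 whose sign turned in 1 of 41 alternatives. Cdh1, which encodes E-cadherin, ran 2.51, 4.76 and 6.00 against 1.74, 3.12 and 7.44, so its highest PASMC value was in a low array, and the difference was 0.63 ± 0.68. It was 1.59 without the keratin-rich low arrays and 0.08 without the high arrays control 6, 0 mg 1 and 18 mg 7.

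The keratins of simple epithelia split the arrays another way. Krt8 exceeded 7 in 9 arrays, none of the others being above 5.83, and these were 6 of the 11 high and 3 of the 13 low arrays. Its values were 4.55, 8.16 and 9.88 in the high and 2.54, 5.03 and 10.62 in the low class, a difference of 1.41 ± 1.05. Krt18, its partner, ran 5.83, 9.93 and 11.56 against 4.20, 6.57 and 12.09, a difference of 1.36 ± 1.04. The 3 low arrays with the highest Krt8 were those with Sftpc of 1.72, 2.07 and 2.00, and without them the differences were 2.79 for Krt8 and 2.72 for Krt18. Without the high arrays control 6, 0 mg 1 and 18 mg 7 they were 0.45 and 0.38, and without the endothelial-rich high arrays 0.90 and 0.80.

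The keratin-rich low arrays also had the highest mean of the alveolar type I list, which includes a keratin, Krt19, and other genes of epithelia in general. It was 7.59 in control array 2, 7.19 in 0 mg array 5 and 7.11 in 18 mg array 5, and the next array, control 8, was at 6.52. Over the classes that list had 13 genes tested, 0 higher and 0 lower at an unadjusted value under 0.05. More specific markers lay far under their AECII means. The highest Aqp5, a water channel of type I cells, was 7.84 in 0 mg array 3, a high array. Hopx and Clic5, 2 markers of the flat type I cell, had AECII means of 10.39 and 10.42. They spanned 2.57 to 4.44 and 2.03 to 3.68 in the high arrays. In the low arrays they spanned 1.95 to 4.84 and 1.92 to 4.49. Without the keratin-rich low arrays the class difference went from 0.31 to 0.70 for Hopx and from -0.28 to -0.10 for Clic5. As a set these arrays were thus higher in both than the other low arrays, although Clic5 was 2.27 in 18 mg array 5.

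Several airway genes reached their highest values in Sftpc-high arrays, and some were raised in Sftpc-low arrays too. Scgb1a1, the secretoglobin of club cells, exceeded 6 in 3 arrays, all Sftpc-high, namely 0 mg array 3 at 11.20, 0 mg array 6 at 7.23 and 18 mg array 2, just below that. The lowest, median and highest values were 2.62, 4.19 and 11.20 in the high class and 1.90, 3.07 and 4.61 in the low class. The difference was 1.98 ± 0.73, and 1.38 without 0 mg array 3. The airway list had 10 genes tested, 3 higher and 0 lower at an unadjusted value under 0.05, where 3.6% and 2.29% of all genes were, and 2 of the 10 had a low-class mean at or below the filter. Its mean was 8.31 in 0 mg array 3 and 4.73 in the next array, control 8. Cbr2, a carbonyl reductase of club cells, reached 11.67 and differed by 2.31 ± 0.72, or 1.33 without the endothelial-rich high arrays. Wfdc2, a secreted protease inhibitor of airway epithelium, differed by 2.36 ± 0.72 but reached 7.15 in low array control 2. Cyp2f2, a club cell oxidase, differed by 1.37 ± 0.81 and reached 6.65, 6.48 and 6.30 in low arrays 0 mg 4, control 3 and 18 mg 6. The AECII means of Scgb1a1, Cbr2, Wfdc2 and Cyp2f2 were 15.75, 10.70, 14.43 and 5.96.

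Macrophage messages were higher in the Sftpc-high class and present in both. Of 33 macrophage and myeloid genes 30 passed the filter, all 30 differed in the positive direction, 26 were higher at an unadjusted value under 0.05 and 0 were lower. Over all genes 50.3% were positive, 3.6% were higher and 2.29% were lower. Without the 2 of these genes whose low-class mean was at or below the filter, 25 of 28 were higher. Of 19 alveolar macrophage genes 15 passed the filter, with 9 higher, 0 lower and a median difference of 0.95 against 0.00089 over all genes.

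Marco, a scavenger receptor of alveolar macrophages, had lowest, median and highest values of 9.34, 11.46 and 13.07 in the high arrays and 7.24, 7.99 and 11.03 in the low arrays. It exceeded the AECII mean of 7.43 in all 11 high and in 12 of 13 low arrays. Of the low arrays 3 of 13 reached the range of the high class, the macrophage-rich arrays named above with Sftpc of 2.68 to 3.42. The difference was 2.64 ± 0.55, and 3.35 without those 3 arrays.

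Chil3, a chitinase-like protein of alveolar macrophages, ran 8.73, 10.86 and 12.63 against 6.86, 8.06 and 10.30, a difference of 2.45 ± 0.55. Lyz2, the lysozyme of myeloid cells, ran 7.90, 10.62 and 11.87 against 6.32, 7.38 and 9.95, a difference of 2.52 ± 0.55. For both, 6 of the 11 high arrays lay above every low array. The macrophage differences held their sign in all 42 alternative settings but varied in size: without the high arrays control 6, 0 mg 1 and 18 mg 7 they were 2.05 for Marco, 1.76 for Chil3 and 1.96 for Lyz2.

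Surface receptors of myeloid cells varied in how far they differed. Clec7a, the beta-glucan receptor Dectin-1, spanned 6.95 to 10.51 against 5.15 to 8.53, a difference of 2.66 ± 0.51. Itgax, the integrin CD11c of alveolar macrophages, spanned 4.09 to 8.48 against 2.32 to 6.67, a difference of 2.70 ± 0.58. Tyrobp, a signalling adaptor, differed by 2.56 ± 0.56, and Siglecf, a lectin of mouse alveolar macrophages and eosinophils, by 1.68 ± 0.39. Csf1r, the receptor for a macrophage growth factor, differed by 0.32 ± 0.13, the integrin Itgam by 0.25 ± 0.13, the scavenger receptor Msr1 by 0.20 ± 0.26 and Cd14, a receptor for bacterial lipid, by 0.05 ± 0.21.

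Some common leukocyte and macrophage markers had smaller differences, and Cd68 and Ptprc lay near background in most arrays. Cd68, a lysosomal glycoprotein, spanned 2.02 to 5.16 against 1.84 to 4.46, a difference of 0.86 ± 0.34, or 0.52 without the high arrays control 6, 0 mg 1 and 18 mg 7. Ptprc, the leukocyte phosphatase CD45, spanned 2.56 to 4.74 against 1.84 to 4.13, a difference of 0.59 ± 0.26. C1qa, a complement subunit made by macrophages, spanned 2.25 to 5.73 against 2.58 to 5.23, a difference of 0.96 ± 0.39. Chemokines of myeloid cells were among the larger differences, with Ccl6 at 2.36 ± 0.51, Ccl9 at 1.99 ± 0.47 and Ccl3 at 1.49 ± 0.44, whereas Ccl2, which smooth muscle also makes, differed by 0.37 ± 0.23.

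In RNA from a whole culture, fewer cells of a type and less RNA per cell cannot be told apart. The part that other cell types take in the Sftpc difference was not tested. The list means show how far they moved together. The macrophage and myeloid list mean was 4.70 to 7.12 in the high and 4.31 to 6.23 in the low arrays, with 5 of 13 low arrays at or above the lowest high array. The alveolar type II list mean was 4.80 to 6.21 against 4.58 to 5.04, with 10 of 11 high arrays above every low array. The deposited scale has no zero, so no marker of these lists is at 0.

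Endothelial genes also leaned to the high class through few arrays. That list had 13 genes tested, 4 higher and 0 lower at an unadjusted value under 0.05 (3.6% and 2.29% of all genes), and a median difference of 0.94 against 0.00089. Without the 1 gene whose low-class mean was at or below the filter, 3 of 12 were higher. Vwf, which encodes von Willebrand factor, spanned 3.36 to 9.41 against 3.77 to 5.64, a difference of 1.38 ± 0.58. Cldn5, the endothelial claudin, differed by 1.23 ± 0.45. Without the endothelial-rich high arrays these were 0.35 for Vwf and 0.58 for Cldn5. The list mean was 4.51, 5.54 and 7.65 in the high and 4.49, 4.97 and 5.87 in the low arrays, and 4 of 11 high arrays lay above every low array.

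**Figure D3:**
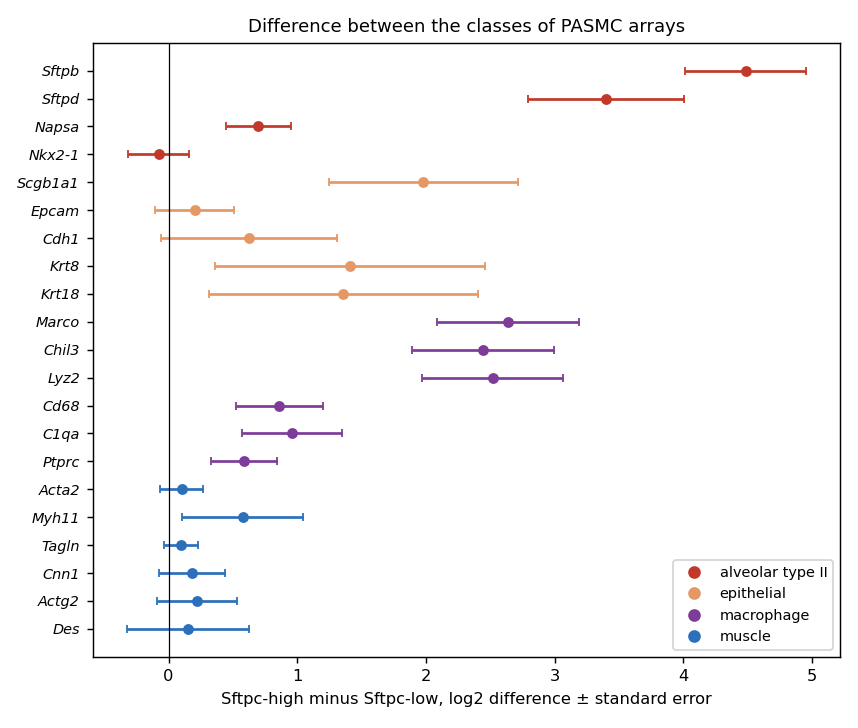
Sftpc-high minus Sftpc-low difference in log2 (horizontal axis, points) with its standard error (bars) for the surfactant, epithelial, macrophage and muscle genes that passed the filter, from limma with treatment as a covariate, 11 against 13 PASMC arrays. Sftpb and Sftpd lie farthest right, Marco, Chil3 and Lyz2 lie near 2.5, and the muscle genes lie between 0.10 and 0.58.

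Contractile genes differed little between the classes. Of 30 smooth muscle genes 27 passed the filter, and 1 was higher and 0 were lower at an unadjusted value under 0.05, a share near that of all genes (3.6% and 2.29%). The median difference was 0.10. Acta2 ran 14.40, 15.33 and 15.46 in the high arrays and 14.33, 14.97 and 15.45 in the low arrays, a difference of 0.10 ± 0.17 whose sign turned in 2 of 42 alternatives. Tagln, the actin-binding transgelin, differed by 0.10 ± 0.13.

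Cnn1, which encodes calponin, ran 12.39, 13.27 and 14.23 against 12.03, 13.30 and 13.87, a difference of 0.18 ± 0.26. Actg2, the gamma actin of smooth muscle, differed by 0.22 ± 0.31. Each of these turned sign in 1 of 42 alternatives, which was leaving out control 6, 0 mg 1 and 18 mg 7 (-0.13 and -0.12). Myh11 ran 6.59, 7.90 and 9.31 against 4.86, 7.57 and 8.84, a difference of 0.58 ± 0.47, or 1.03 without the keratin-rich low arrays and 0.17 without control 6, 0 mg 1 and 18 mg 7. Des, the intermediate filament desmin, ran 5.87, 6.44 and 9.21 against 5.40, 7.33 and 8.58, a difference of 0.15 ± 0.47, with its sign turned in 4 of 42 alternatives.

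The remaining lists are given by their counts at an unadjusted value under 0.05, beside 3.6% of all genes higher and 2.29% lower. The fibroblast list had 17 genes tested with 0 higher and 0 lower, the pericyte list 7 with 0 and 0, and the interferon-stimulated list 12 with 0 and 0. The cell cycle list had 17 tested, with 0 higher and 0 lower and 2 positive differences, and a median of -0.12. The matrix list had 22 tested with 2 higher, among them Loxl2, a collagen cross-linking enzyme, at 0.28 ± 0.12. The lysosome list had 21 tested with 2 higher, which were Lipa, the acid lipase, at 0.40 ± 0.12, and Ctsd, cathepsin D, at 0.21 ± 0.08. Lipa was at 0.22 without the endothelial-rich high arrays, and Ctsd at 0.12 without control 6, 0 mg 1 and 18 mg 7.

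Mesothelial (4 tested), red blood cell (1 tested) and stress (12 tested) lists had 0 higher and 0 lower. The antigen presentation list had 6 tested with 1 higher, Cd74, the invariant chain of MHC class II, at 1.84 ± 0.53. The mast cell list had 4 tested with 1 higher, the neutrophil and lymphocyte list 7 with 2, and the chemokine list 15 with 3, and none had a gene lower. These are 25%, 28.6% and 20% of the genes tested, above the 3.6% over all genes, but from few genes. In the mast cell and in the neutrophil and lymphocyte list 1 gene had a low-class mean at or below the filter. Without it, 1 of 3 and 1 of 6 were higher.

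**Figure D4:**
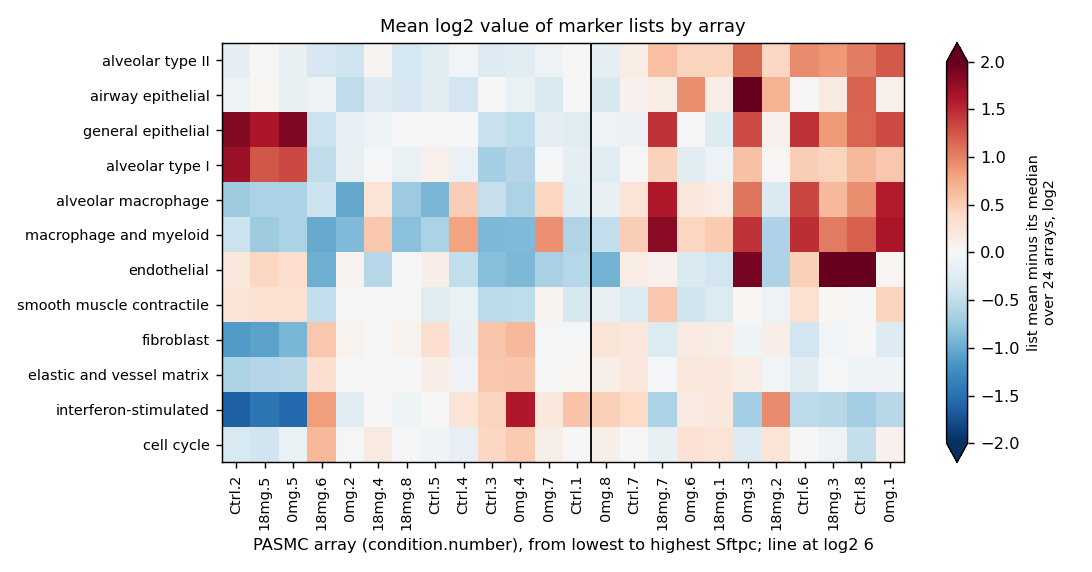
Mean log2 value of 12 marker lists in each PASMC array (columns, named by condition and label number, ordered from lowest to highest Sftpc, vertical line at 6), shown as the difference from the list's median over the 24 arrays (colour, capped at 2 log2 units). The 3 columns with the lowest Sftpc have high epithelial and type I lists and low fibroblast and interferon lists, and macrophage and type II lists are higher mostly to the right of the line.

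Of the genes lower in the Sftpc-high arrays, the 5 described here were chosen after their values were seen, and none reached 0.05 after adjustment. Sdk1, a cell adhesion protein, had a median of 6.65 in the high and 7.08 in the low arrays, a difference of -0.42 ± 0.09. Adm, which encodes the vasodilator adrenomedullin, spanned 11.94 to 12.37 against 12.33 to 12.66, a difference of -0.25 ± 0.06, with the classes touching at the edge. Hells, a chromatin remodeller, and Atad5, which unloads the replication clamp, differed by -0.51 ± 0.13 and -0.63 ± 0.15. Xlr3b, of an X-linked gene family, differed by more, -1.03 ± 0.27.

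Across all 24 PASMC arrays the 10 genes whose values tracked Sftpc most closely were Sftpb (Pearson r 0.94), Chil1 (0.86), Sftpd (0.85), Cxcl15 (0.83), N4bp3 (0.82), Clec1b (0.81), F7 (0.79), Sun5 (0.79), Gngt2 (0.79) and Clec7a (0.78). These are descriptions over arrays that share the gap between the classes. Outside the marker lists, F7, coagulation factor VII, differed by 1.70 ± 0.35, Clec1b, a lectin receptor of platelets and myeloid cells, by 1.02 ± 0.20, and N4bp3 by 0.64 ± 0.12.

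Whether Sftpc still went with other messages inside a class was tested for 12 genes in each class, 24 relations in all, by permutation (100000 resamples, two-sided, adjusted over the 24). In the 11 high arrays Sftpb rose with Sftpc (Pearson r 0.81, permutation adjusted p = 0.0199; Spearman rho 0.79, permutation adjusted p = 0.0647). Sftpd did so too (r 0.83, permutation adjusted p = 0.0199; rho 0.73, permutation adjusted p = 0.0647). With each condition's mean removed, r was 0.84 for both, with a permutation adjusted p of 0.0136. Without the 2 arrays farthest from the median Sftpc of the class, r fell to 0.56 for Sftpb and 0.58 for Sftpd (permutation adjusted p = 0.347 for each). Leaving these arrays out also narrows the range of Sftpc and leaves 9 arrays. How far the relations rest on them therefore cannot be told. The permutation also takes the arrays as exchangeable, which arrays that share a mouse would not be.

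The other 10 partners in the high arrays did not pass. Their r was 0.68 for Sftpa1, 0.66 for Epcam, 0.62 for Acta2, 0.61 for Krt8, 0.55 for Lyz2, 0.52 for Chil3, 0.48 for Marco and for Myh11, 0.45 for Napsa and 0.10 for Scgb1a1. In the 13 low arrays none of the 12 passed, where Sftpc was at or near background in most arrays. The farthest from 0 there were Acta2 (r -0.64, permutation adjusted p = 0.110) and Krt8 (r -0.62, permutation adjusted p = 0.116). At 11 and 13 arrays the number of arrays limits what these tests can show.

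The class differences did not depend detectably on the extract. With limma's test of the difference between class differences, 0 of 14544 genes (0%) passed an adjusted p of 0.05 for the 0 mg/ml extract against control, with 312 (2.15%) at an unadjusted p under 0.05. For the 18 mg/ml extract 0 passed (0%), with 551 (3.79%) unadjusted. For Sftpb the 0 mg/ml difference exceeded the control difference by 0.59 ± 1.22, and for Marco it was smaller by a difference of -0.34 ± 1.43. These standard errors, over groups of 3 to 5 arrays, leave room for sizeable differences. The smallest unadjusted p values belonged to Ssc4d (-1.78 ± 0.40), 2810021J22Rik (-1.76 ± 0.41), Krtap26-1 (-1.46 ± 0.35), Olfr1419 (1.98 ± 0.48) and 4930448E22Rik (-1.60 ± 0.41) for the 0 mg/ml extract. For the 18 mg/ml extract they belonged to 2810021J22Rik (-1.95 ± 0.41), Glis1 (1.20 ± 0.27), Med12 (-0.83 ± 0.19), Dvl2 (0.69 ± 0.16) and Asb18 (1.63 ± 0.38).

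The extracts were compared with control with the class in the model, which the rule did not use. For the 18 mg/ml extract 1 of 14544 genes (0.00688%) passed an adjusted p of 0.05 in limma, with 595 (4.09%) at an unadjusted p under 0.05. That gene was Uap1l1, which encodes a relative of the enzyme that makes UDP-N-acetylglucosamine. In the low arrays its mean was 10.81 ± 0.37 (SD, n = 5) in the control and 9.83 ± 0.19 (SD, n = 4) with the 18 mg/ml extract. In the high arrays it was 10.78 ± 0.36 (SD, n = 3) and 9.91 ± 0.14 (SD, n = 4). All 8 exposed arrays lay below the control mean, and in each class the exposed arrays lay below every control array.

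The fall of Uap1l1 was -0.93 ± 0.14 with the class in the model (limma adjusted p = 0.0130) and -0.93 ± 0.14 without it (limma adjusted p = 0.00775). The smallest limma adjusted p over all genes in the 18 mg/ml comparison was also followed, whichever gene held it. It was 0.0508, 0.0565 and 0.0599 without 18 mg array 5, 18 mg array 6 and control array 7. Over 31 alternatives it ran from 0.000814 to 0.572. With the 0 mg/ml extract the difference of Uap1l1 was -0.75 ± 0.14 (limma adjusted p = 0.269).

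Without the class in the model 4 genes (0.0275%) passed for the 18 mg/ml extract, and 3 of these did not pass with it. Slc6a8, the creatine transporter, differed by -0.43 ± 0.08 with the class, Kazn by -0.73 ± 0.13 and Ctsk, the lysosomal protease cathepsin K, by -0.70 ± 0.13, each with a limma adjusted p of 0.0729 against 0.0427 without the class. Their differences without the class were -0.43, -0.74 and -0.70, so the estimates hardly moved.

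For the 0 mg/ml extract 0 genes passed with the class in the model (0%), with 421 (2.89%) at an unadjusted limma p under 0.05. After Uap1l1 the smallest were Fnip2 (-0.57 ± 0.14), Neu1, a lysosomal sialidase (-0.46 ± 0.11), Gnptg, a subunit of the enzyme that tags lysosomal proteins (-0.40 ± 0.10), and Slc6a8 (-0.32 ± 0.08). Between the extracts 0 genes passed (0%), with 287 (1.97%) unadjusted, led by Gm10220 (0.66 ± 0.16), Tctn3 (-0.91 ± 0.23), Wdr31 (1.05 ± 0.27), Wdr38 (0.92 ± 0.24) and Mansc1 (-1.04 ± 0.27).

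The arrays were also compared by likeness over all genes after each gene's mean over the 24 PASMC arrays was removed. For 22 of the 24 PASMC arrays the most alike array was in another condition, while 69.6% of the other arrays were of another condition. For 20 of 24 it was in the same Sftpc class, where the classes held 11 and 13 of the arrays. That share is not independent of the classes. For 2 of 24 it carried the same label number. The strongest likeness joined control array 3 with 0 mg array 4 (r 0.64) and control array 2 with 0 mg array 5 (r 0.61), both pairs Sftpc-low. By label number, Sftpc-high arrays numbered 2, 1, 2, 0, 0, 2, 2 and 2 of 3 for numbers 1 to 8, a count the labels tie to no mouse.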

How the data were processed

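RNA from 24 PASMC and 24 AECII cultures was measured on single-colour Agilent arrays. The authors deposited log2 values, 1 for each feature in each array. Per the submitters' processing notes limma was used, with no version given. Over the arrays the typical lower quartile of the deposited log2 values was 2.25 and the typical median 2.98, and the highest value was 15.89. The lowest value of an array lay between 1.52 and 1.53. From the likeness of the arrays quantile normalisation was inferred, which the sources used here do not state. No scanner intensities were used here. Of 62976 features 31465 carry a gene name, brought to RefSeq symbols (GRCm38) by accession for 29036 and otherwise for 2429. For the 20738 genes, 6171 with several features, the feature brightest on average over all 48 arrays was taken. Missing values numbered 28.

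Groups came from the labels and the classes from Sftpc. Genes whose PASMC mean was above 2.73 entered the tests, 14544 beside Sftpc. That limit is the 30th percentile over the means of the named features. Differences were fitted with limma 3.58.1 (lmFit, eBayes), with Benjamini-Hochberg adjustment over all genes tested, two-sided, at 0.05, and the procedure was tested on simulated data. The number of arrays limits the precision. Alternatives were other Sftpc thresholds, no treatment covariate, filters, scalings, variance settings, blocks, the mean of all features and leaving out each array. A second Sftpc feature could not be tried, because the array has 1 named feature for it. Leaving out the 4 sets of 3 arrays was added after the data were seen.

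The members, the 21 marker lists (351 genes, 339 on the array) and the named genes were chosen with earlier results of these data known. Named were 23 readouts, called genes, up to 4 called members of a list, the 10 genes with the highest r with Sftpc and the 5 smallest p values where none was called. Other list members and the genes lower in the Sftpc-high class were added as examples after their values were seen.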

Additional observations from a re-analysis of the deposited data

Results flagged for a closer look

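In the 8 PASMC arrays with the 18 mg/ml extract, Sftpa1 was 4.73 in array 3 and 3.21 in the next highest array, a gap that took 0.589 of the group's range against Dixon's critical value of 0.526. It was the 1 such case among 69 groups of gene and condition examined, and chance gives about 1 in 20.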

How the results depend on the processing

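The class difference called 1 gene, and this count varied with the setting. It was 5 with a threshold of 5, 93 with a threshold of 8, 9 without the treatment covariate, 2 without the filter and 0 with the filter at the 50th percentile, which drops Sftpb (it was not among the genes tested). It was 109 when all 48 arrays shared a variance, 5 with array weights and 2 with the mean of all features. It ran from 1 to 63 when 1 array was left out, with 63 without 0 mg array 8, 36 without 0 mg array 7, 31 without 18 mg array 4, 29 without 18 mg array 2 and 2 without control array 7. It was 4 without the keratin-rich low arrays, 2 without the keratin-rich high arrays, 86 without the macrophage-rich low arrays and 1 without the endothelial-rich high arrays. The cause of these changes was not tested. Of 21 genes followed through the alternatives 15 kept their sign throughout, and Nkx2-1, Epcam, Acta2, Cnn1, Actg2 and Des did not.

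For the 18 mg/ml extract against control, the count of 1 became 4 without the class, 0 in the low arrays alone and 0 in the high arrays alone (fewer arrays), 5 with the filter at the 50th percentile and 3 with trended robust variances, and ran from 0 to 4 when 1 array was left out. For the 0 mg/ml extract it ran from 0 to 1 when 1 array was left out, and between the extracts it was 1 in the high arrays alone. The 2 relations within the high class became 0 without the 2 farthest arrays.

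With the replicate block, the label number as a block, the class difference again called 1 gene, and the 18 mg/ml comparison called 0. The label numbers gave no sign of pairing these arrays, so this block need not follow the mice. Whether arrays are paired under other numbers was not tested. Same-numbered arrays of different conditions correlated at -0.40 to 0.62 (median 0.03) in their deviations from the condition means, and 9 of 24 such pairs exceeded 0.1. Differently numbered arrays of different conditions correlated at -0.47 to 0.67 (median 0.01), and 59 of 168 such pairs exceeded 0.1.

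Signals near the array median of 2.98 give little room to show lower levels. Sftpa1, Napsa, Epcam, Nkx2-1, Cd68 and Ptprc lay near it in most PASMC arrays.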
